A study of Mus musculus with 47 samples.

Results

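Sexual dimorphism of the liver was examined in wild-type mice that had received antibiotics. The comparison set 6 males against 6 females, 12 of the 47 mouse liver arrays of the series, chosen by the labels for sex, genotype (PxrWT) and treatment (ATB), and it was restricted to genes on autosomes. The series asked how depletion of the gut microbiota and loss of the pregnane X receptor (PXR, encoded by Nr1i2), a nuclear receptor that senses xenobiotics, alter gene expression in male and female livers. Its arrays fall into 8 groups of sex, Pxr genotype and treatment, each with 6 mice except the control Pxr-/- males, which have 5. RNA of each mouse was labelled with 1 dye and hybridised to a SurePrint G3 Mouse GE v2 array, and the signal of each probe was read as a fluorescence intensity.

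All mice were littermates born to Pxr+/- parents on a C57BL/6J background. The antibiotic-treated Pxr+/+ males (M_PxrWT_ATB) and females (F_PxrWT_ATB) were about 6 months old and drank tap water with ampicillin at 1 g/L, neomycin at 1 g/L and vancomycin at 0.5 g/L for 2 weeks. They were killed at ZT6, that is 6 h after lights on. Control Pxr+/+ mice (6 males and 6 females) drank plain tap water, and antibiotic-treated Pxr-/- mice (6 males and 6 females) had the same antibiotics but lack PXR in every tissue. Males and females were housed apart from 5 weeks of age in 2 cages per group, and the labels do not give the cage of a mouse, so that sex and cage cannot be told apart and p-values treat cage mates as independent. Each of the 6 slides carried 1 male and 1 female of the antibiotic-treated Pxr+/+ groups.

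Mouse liver is one of the most sexually dimorphic organs outside the reproductive tract. Males release growth hormone in sharp pulses and females almost continuously, and the hepatocyte reads this pattern mainly through the transcription factor STAT5, with the repressor BCL6 favouring the male programme and the female-expressed repressor CUX2 acting against it. Many of the genes concerned encode cytochrome P450 enzymes, sulfotransferases, transporters and, in males, the major urinary proteins that carry pheromones.

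Of 35480 autosomal genes on the array, 20971 had a probe above background in enough arrays to be tested. A gene was called where limma's moderated test gave a Benjamini-Hochberg adjusted p of 0.05 or less and the fold change exceeded 1.2, and the brightest tested probe stands for its gene unless stated. All differences are male less female, on the log2 scale, so that a negative value means more signal in females. The sex labels were met by genes of the sex chromosomes, which were used for nothing else. Xist, the RNA that silences an X chromosome in females, was not well above background in any male and at least 10.7-fold higher in females, and the Y-linked Eif2s3y was at least 60.9-fold higher in males. For Kdm5d, also Y-linked, 3 of 4 probes were higher in males, and the remaining probe was above background in all mice of both sexes and was not called (0.11 on the log2 scale, adjusted p = 0.485).

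In antibiotic-treated Pxr+/+ livers 873 autosomal genes (4.16%) were higher in males and 2121 (10.1%) were higher in females after CrossNorm, the normalization named in the study's methods, so that 70.8% of calls lay on the female side. With quantile normalization of all arrays the counts were 1678 (8.00%) and 1889 (9.01%), an almost even split. The median autosomal probe differed by -0.03 after CrossNorm and by 0.02 after quantile normalization. Both normalizations called the same 873 genes higher in males and shared 1822 of the genes higher in females. The raw brightness of the arrays overlapped between the sexes. The 75th percentile of signal intensity lay between 351 and 417 in males (median 392.25) and between 346 and 492.5 in females (median 411), and the difference of the means of -24.6 had an exact two-sided permutation p of 0.327 over 924 splits.

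**Figure D1:**
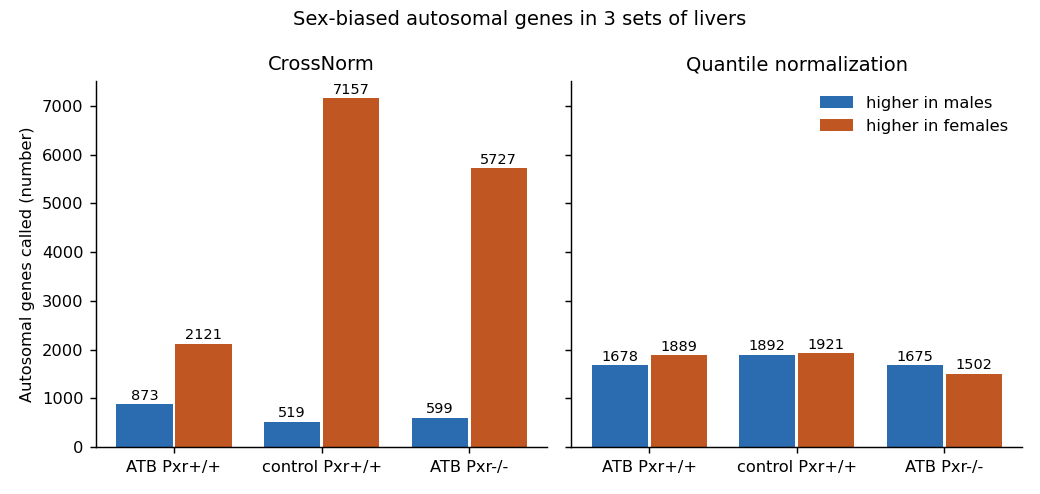
Autosomal genes called higher in males (blue) or in females (orange), as a number on the vertical axis, in antibiotic-treated Pxr+/+, control Pxr+/+ and antibiotic-treated Pxr-/- livers, after CrossNorm (left) and quantile normalization (right). In antibiotic-treated Pxr+/+ livers the numbers are 873 and 2121 after CrossNorm and 1678 and 1889 after quantile normalization.

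The count on each side depended on the normalization far more in the other sets of mice. In control Pxr+/+ livers CrossNorm called 519 genes (2.47%) higher in males and 7157 (34.1%) higher in females, against 1892 (9.02%) and 1921 (9.16%) after quantile normalization. In antibiotic-treated Pxr-/- livers the counts were 599 (2.86%) and 5727 (27.3%) after CrossNorm and 1675 (7.99%) and 1502 (7.16%) after quantile normalization. The raw brightness moved with this. Control males lay between 309.5 and 388.5 at the 75th percentile of intensity and control females between 404 and 459, without overlap. Antibiotic-treated Pxr-/- males lay between 321 and 371.5 and the females between 371 and 448. What part brightness plays in these counts was not tested. Values below are after CrossNorm, and both normalizations gave the same call of the sex difference on antibiotics for each gene named. For the 10 genes with the largest difference on each side this was a condition of being named.

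Values of all 12 mice fell apart by sex, with no overlap, for 1362 genes (6.49%) after CrossNorm and for 1754 (8.36%) after quantile normalization. Among the called genes these were 384 of those higher in males and 810 of those higher in females after CrossNorm. Large differences were few. More than 2-fold were 177 genes on the male side and 276 on the female side, more than 4-fold 49 and 77, more than 16-fold 12 and 19, and more than 64-fold 5 and 12. After quantile normalization the numbers above 2-fold were 192 and 238. For 35 genes called higher in males no female array was well above background, and for 49 called higher in females no male array was.

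Among the largest male-biased differences were those of a pair of P450 genes that hydroxylate fatty acids. Cyp4a12a (probe at mm9 chr4:115005258-115005317) had a log2 signal of 12.25 to 12.95 in males with a median of 12.75. In females it read 4.36 to 4.84, with a median of 4.54, and no female array was well above background. The groups did not overlap, and males exceeded females at least 251-fold (adjusted p = 2.65e-38). Its neighbour Cyp4a12b was at least 319-fold higher (adjusted p = 2.56e-39). Hsd3b5 (mm9 chr3:98422576-98422635), a steroid dehydrogenase family member of male liver, ranged from 13.84 to 15.27 in males (median 14.86) and from 5.57 to 7.84 in females (median 6.83). Every male was far above every female, with a difference of 7.95 ± 0.32 (SE, adjusted p = 5.71e-24). Elovl3, which elongates very long chain fatty acids, ranged from 12.63 to 14.56 in males (median 13.73) and from 6.37 to 7.97 in females (median 7.18). The sexes were again separate, with a difference of 6.48 ± 0.35 (adjusted p = 3.23e-19).

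Tff3, which encodes a secreted trefoil peptide better known from mucus of the gut, ranged from 10.21 to 12.47 in males (median 11.01). In females it ranged from 4.77 to 5.43 (median 5.10), and only 4 of 6 female arrays were well above background. The difference was 6.03 ± 0.37 (adjusted p = 4.86e-17), with no overlap. The other genes among the 10 with the largest male excess were Nat8f5 (at least 49.4-fold, female arrays not well above background), Nat8 (5.48), both of the N-acetyltransferase 8 family, Gm4956 (5.17), the complement regulator Susd4 (4.66) and the urinary protein pseudogene Mup-ps12 (4.60).

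On the female side sulfotransferases of the Sult2a family, which sulfate bile acids and steroids, were prominent among the large differences. Sult2a2 (mm9 chr7:14364926-14364985) ranged from 14.10 to 16.13 in females (median 15.02) and from 4.19 to 5.68 in males (median 4.63), where 1 of 6 arrays was well above background. The groups did not overlap, with a measured difference of -10.37 ± 0.29 (adjusted p = 9.38e-30). Sult2a1 (mm9 chr7:14381602-14381661) followed with -10.20 ± 0.31 and Sult2a6 with -9.70 ± 0.28, and for both 1 of 6 male arrays was likewise well above background, so that the sizes in this family rest on male values near background. Sult2a4 was at least 288-fold higher in females, and no male array was well above background for it. The microarray probes of Sult2a genes share runs of up to 36 of their 60 bases, and whether a probe also reads a sister transcript was not tested.

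Cyp2b13 was at least 703-fold higher in females and Cyp3a44 at least 215-fold, both P450 genes with no male array well above background. Sult3a1, another sulfotransferase, differed by -8.16 ± 0.37, with 1 of 6 male arrays well above background. A further transcript among the 10 with the largest female excess, ENSMUST00000121135 on chromosome 7, has no gene symbol here and was 256-fold higher in females (adjusted p = 5.38e-26).

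**Figure D2:**
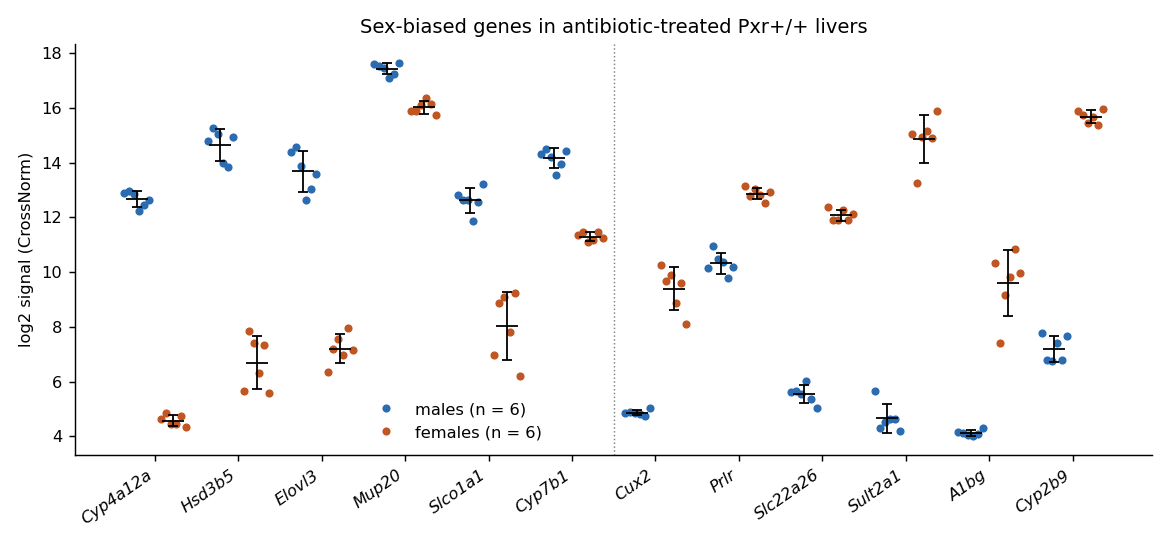
Log2 signal after CrossNorm (vertical axis) of 12 genes in each antibiotic-treated Pxr+/+ mouse, males in blue and females in orange, with mean and SD as black bars (n = 6 a sex). The 6 genes left of the dotted line are higher in males and the 6 on the right in females, and for each of the 12 genes no male overlaps a female.

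Genes known to follow the growth hormone pattern kept to the known side. Of 37 tested genes listed as male-biased growth hormone targets, 30 were called higher in males and 0 higher in females (81.1%), with a median difference of 1.51, and 26 had no overlap between the sexes. Of 44 listed female-biased targets, 39 were called higher in females and 0 higher in males (88.6%), with a median of -2.74 and 36 without overlap. Over all autosomal genes the median was -0.04, with 4.16% called higher in males, 10.1% higher in females and 6.49% without overlap. These lists were drawn from textbook knowledge of liver dimorphism, so their direction is no independent finding. On the male side Slco1a1, an organic anion uptake transporter, differed by 4.58 ± 0.49, Cyp2d9 by 3.56 ± 0.11, the complement component C6 by 3.45 ± 0.16 and Cyp7b1, a hydroxylase of oxysterols and steroids, by 2.86 ± 0.18. The members that were not called included C4a (-0.04), Serpina1e (0.04), Lifr (-0.51) and Sult5a1 (-0.68). On the female side Hao2 was at least 46.6-fold higher and A1bg at least 30.3-fold higher, and Slc22a26, an organic anion transporter family member, differed by -6.54 ± 0.17. Female members without a call were Lpl (0.36), Rarres1 (0.33), Prom1 (-0.08), Cyp2a22 (-0.55) and Cd36 (-0.63).

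Promoters of the genes in the list were searched for TTCNNNGAA, the core site that STAT5 can bind, in the 300 bases from 250 before to 50 after each transcription start (RefSeq, GRCm38.p6). The letters read the same on both strands. They occur in 8.30% of all 32851 promoters in that table, and 9.55% of its 27025 genes have a promoter with them. Among genes called through their brightest probe and over 2-fold higher in males, 12 of the 107 with a promoter in the table (11.2%) held it. Among those over 2-fold higher in females it was 22 of 159 (13.8%), beside 8.69% of the 12281 tested genes with a promoter. Counted by promoter instead of by gene, these shares were 7.74% on the male side, 10.5% on the female side and 7.25% for tested genes. Of the 44 female-biased targets 31 had a promoter, and 5 of these held the motif, as did 3 of the 28 with a promoter among the male-biased targets. The 3 female-biased ones with the largest difference are shown here with the motif in capitals as examples. The motif ended 100 bases before the start in Sult3a1 (chr10:33857472-33857771, plus strand), 132 before it in Slc22a26 (chr19:7802618-7802917, minus strand) and 75 before it in A1bg (chr15:60921221-60921520, minus strand).
Sult3a1: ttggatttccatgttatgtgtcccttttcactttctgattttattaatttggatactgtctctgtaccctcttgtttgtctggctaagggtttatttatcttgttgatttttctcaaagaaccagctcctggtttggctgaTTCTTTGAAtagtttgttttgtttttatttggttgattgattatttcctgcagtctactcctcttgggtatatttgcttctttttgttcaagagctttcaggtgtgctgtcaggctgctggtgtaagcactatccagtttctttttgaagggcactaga
Slc22a26: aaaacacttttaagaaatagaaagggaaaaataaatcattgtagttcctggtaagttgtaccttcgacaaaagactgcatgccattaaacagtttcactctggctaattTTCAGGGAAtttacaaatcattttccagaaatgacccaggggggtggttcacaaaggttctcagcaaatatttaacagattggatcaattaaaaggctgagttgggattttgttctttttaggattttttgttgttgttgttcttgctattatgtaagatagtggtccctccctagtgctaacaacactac
A1bg: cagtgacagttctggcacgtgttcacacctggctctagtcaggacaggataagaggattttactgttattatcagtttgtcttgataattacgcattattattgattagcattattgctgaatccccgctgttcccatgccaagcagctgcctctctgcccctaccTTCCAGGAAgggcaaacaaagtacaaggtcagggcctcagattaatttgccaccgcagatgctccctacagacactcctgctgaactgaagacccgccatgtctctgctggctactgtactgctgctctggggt
Of the 20 genes with the largest differences, 11 had a promoter in the table, and Sult3a1 alone held the motif. A match is a description of letters and shows no binding.

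The genes that carry or read the hormone signal were less uniform. Of 36 tested genes of growth hormone signalling and sex-linked liver regulators, 2 were called higher in males and 11 higher in females, beside 4.16% and 10.1% of all genes, so that the male share is close to that of all genes. Cux2 (mm9 chr5:122308503-122308562), the female repressor, ranged from 8.09 to 10.26 in females (median 9.63) and from 4.76 to 5.05 in males (median 4.84), where 2 of 6 arrays were well above background. It differed by -4.53 ± 0.29 (adjusted p = 1.4e-16), without overlap. The prolactin receptor gene Prlr differed by -2.55 ± 0.20, the oestrogen receptor gene Esr1 by -1.72 ± 0.15 and Tox by -1.47 ± 0.22, each without overlap between the sexes. Socs2, a feedback inhibitor that growth hormone induces, was higher in females (-1.74 ± 0.49, adjusted p = 0.014), but its male values ran from 7.95 to 11.02 and overlapped the female range of 10.71 to 11.85, and without male 1 it was not called (-1.41, adjusted p = 0.0615). Stat5b differed by -0.49 ± 0.14 (adjusted p = 0.0169), a call lost without male 4 or 5 or female 1 or 6 (adjusted p of up to 0.0663), while Stat5a (0.10), the growth hormone receptor gene Ghr (0.02) and Bcl6 (0.15 ± 0.52) were not called. Bcl6 varied more within a sex than between the sexes, from 10.41 to 12.84 in males and from 10.08 to 12.50 in females. Zfp809 was called higher in males (0.76 ± 0.12). Nr1i3, which encodes the xenobiotic receptor CAR, was higher in females (-0.59 ± 0.14, adjusted p = 0.00235), and Nr1i2 itself was not called (-0.33 ± 0.18, adjusted p = 0.25).

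Major urinary protein genes were higher in males in 10 of 12 tested members, with no member higher in females, beside 4.16% and 10.1% of all genes. Mup6 differed by 3.23 ± 0.22, Mup5 by 2.25 ± 0.24 and Mup20, the pheromone darcin, by 1.42 ± 0.14. The female level was high as well. Mup20 ranged from 17.11 to 17.65 in males (median 17.50) and from 15.73 to 16.35 in females, still without overlap. Mup probes share runs of up to 35 bases (Mup17 with Mup18), and those of Mup6, Mup5 and Mup20 share at most 10, 7 and 7 with any other. Whether a Mup probe also reads a sister transcript was not tested, so that values of single Mup genes are uncertain.

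Drug-metabolising enzymes divided between the sexes. Of 62 tested P450 genes of families 1 to 4, 11 were called higher in males and 24 higher in females, and 28 had no overlap, beside 4.16%, 10.1% and 6.49% of all genes. Beside Cyp4a12a and Cyp4a12b, the male side held Cyp2d34, at 9.17 to 9.71 in males and 5.13 to 5.72 in females, and Cyp2d9. The female side was led by the Cyp2b, Cyp3a, Cyp2c and Cyp4a genes, with Cyp2c68 at -2.82, Cyp2g1 at -2.69, Cyp2c69 at -2.52 and Cyp4a14 at -4.79. Sulfotransferases were called higher in females in 13 of 18 and in males in 1, Sult2a8 (0.96 ± 0.13). Of 23 glutathione S-transferases 4 were higher in males, among them Gstp1 (2.32) and Gstp2 (1.83), and 9 higher in females, among them Mgst3 (-1.01) and Gstm2 (-0.81). Of 13 UDP-glucuronosyltransferases 4 were higher in males after CrossNorm and 8 after quantile normalization, led by Ugt2b1 (1.22 ± 0.14), and 1 was higher in females. Of 30 transporters 5 were higher in males, among them the efflux pump Abcg2 (1.19 ± 0.11), and 11 higher in females, among them the multidrug pump Abcb1a (-1.68 ± 0.20) and the carnitine carrier Slc22a5 (-1.07). Of 21 genes of bile acid synthesis and conjugation 5 were higher in males, with Cyp7b1 and the sterol 12-alpha-hydroxylase Cyp8b1 (1.67 ± 0.30) in the lead. Cyp39a1, an oxysterol hydroxylase, was higher in females (-1.26 ± 0.17), and Cyp7a1, the rate-limiting enzyme of bile acid synthesis, was not called (0.73 ± 0.52). The 2 bile acid genes higher in females, of 21, are a share close to the 10.1% of all genes.

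Genes known to respond to PXR were measured as a list of 25, with a median of -0.35. Of these, 2 (8%) were called higher in males and 11 (44%) higher in females, beside 4.16% and 10.1% of all genes. The female side was not particular to these mice. The median of the list was -0.54 in control Pxr+/+ mice and -0.49 in antibiotic-treated Pxr-/- mice. After quantile normalization it was -0.32 in antibiotic-treated Pxr+/+ mice, -0.39 in the control mice and -0.30 in the Pxr-/- mice. Akr1b7, an aldo-keto reductase, differed by -2.62 ± 0.24, with 4 of 6 male arrays well above background. Papss2, which makes the sulfate donor of sulfotransferases, differed by -1.21 ± 0.13 and Por, the electron donor of P450 enzymes, by -1.04 ± 0.24. The members higher in males were Aldh1a1 (0.51) and Ces2a (0.46). Cyp2c55 was not called (-0.21 ± 0.25, adjusted p = 0.69).

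Sex differences were next set beside those of the 12 control Pxr+/+ mice, which share no array with the antibiotic-treated ones. The question was which differences are particular to mice on antibiotics. Of the 49 genes over 4-fold higher in males, 49 were called higher in males in control mice as well, and of the 77 over 4-fold higher in females 76 were. Of those over 2-fold, 158 of 177 (89.3%) and 254 of 276 (92.0%) were called the same way. These are CrossNorm calls, which in control mice took 2.47% of all genes on the male side and 34.1% on the female side. After quantile normalization 179 of 192 (93.2%) and 205 of 238 (86.1%) were called the same way, beside 9.02% and 9.16% of all genes. Of all genes called after quantile normalization, 970 were shared on the male side, 57.8% of the antibiotic list and 51.3% of the control list. On the female side 1249 were shared, 66.1% of the antibiotic list and 1249 of the 1921 genes of the control list. The sex differences correlated across 20971 genes with r = 0.90 after quantile normalization, as a description, since genes are not independent replicates.

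A test of the difference between the 2 sex differences (antibiotics less control) called 10 genes (0.0477%) after CrossNorm and 8 (0.0381%) after quantile normalization. Without adjustment for multiple tests, 3629 and 1483 genes had a p under 0.05. The 6 called genes with a larger female excess under antibiotics were all P450 genes: Cyp2b10 (-2.93 ± 0.47), Cyp2b9 (-2.43 ± 0.43), Cyp3a16 (-2.15 ± 0.24), Cyp3a11 (-2.06 ± 0.25), Cyp3a41a (-1.88 ± 0.19) and Cyp3a59 (-1.14 ± 0.20). Their adjusted p-values lay between 3.54e-08 for Cyp3a41a and 0.00691 for Cyp3a59 and Cyp2b9. For Cyp2b10 the call came from 1 of 2 tested probes, the brightest, and the other probe was not called after either normalization. These 6 genes were called in each of 12 other settings and without any 1 of the 12 mice on antibiotics. The 12 settings include a fit of only the groups compared, and they leave out the fits within a single wash batch, which are given at the end.

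**Figure D3:**
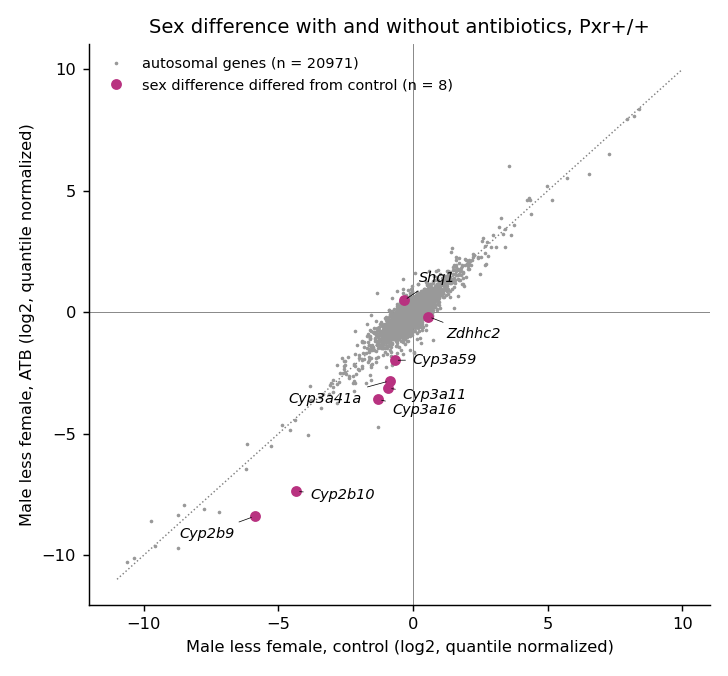
Male less female difference on the log2 scale of each of 20971 autosomal genes in antibiotic-treated (vertical axis) and control (horizontal axis) Pxr+/+ livers, both quantile normalized, with the dotted line where both are equal. The 8 genes whose difference changed with antibiotics are marked, and the 6 P450 genes among them lie below the line.

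The values of the P450 genes by mouse show which group moved. Cyp3a11 (mm9 chr5:146672058-146673925), the main drug-metabolising P450 of mouse liver and a standard PXR target, ranged from 11.88 to 12.55 in males on antibiotics (median 11.99) and from 14.64 to 15.52 in females (median 15.41). The sex difference was -3.17 ± 0.17 (adjusted p = 7.45e-19), a fold of 9.01. In control mice the means were 14.15 in males and 15.26 in females, a difference of -1.11. Males on antibiotics were thus lower than control males by a mean of -2.04 ± 0.17 (adjusted p = 1.22e-10), with every male on antibiotics below every control male, while the females differed by 0.02 ± 0.17 (adjusted p = 0.976).

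Cyp3a16, Cyp3a41a and Cyp3a59 had the same pattern of groups. Between males on antibiotics and control males they differed by -1.90, -1.73 and -1.18, and between the females by 0.25, 0.15 and -0.03, with adjusted p-values of 0.626 or more in females. Cyp2b10 (mm9 chr7:26711522-26711581), the standard target of CAR, ranged from 6.70 to 8.62 in males on antibiotics (median 7.57) and from 14.70 to 15.38 in females (median 15.02). Control males had a mean of 10.71 and control females of 15.22. The sex difference was therefore -7.44 ± 0.33 on antibiotics, a fold of 174, and -4.51 in control mice. Cyp2b9 (mm9 chr7:26995607-26995666) differed by -8.49 ± 0.31 on antibiotics and by -6.05 in control mice, with a male change of -2.46 ± 0.31 and a female change of -0.03 ± 0.31.

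**Figure D4:**
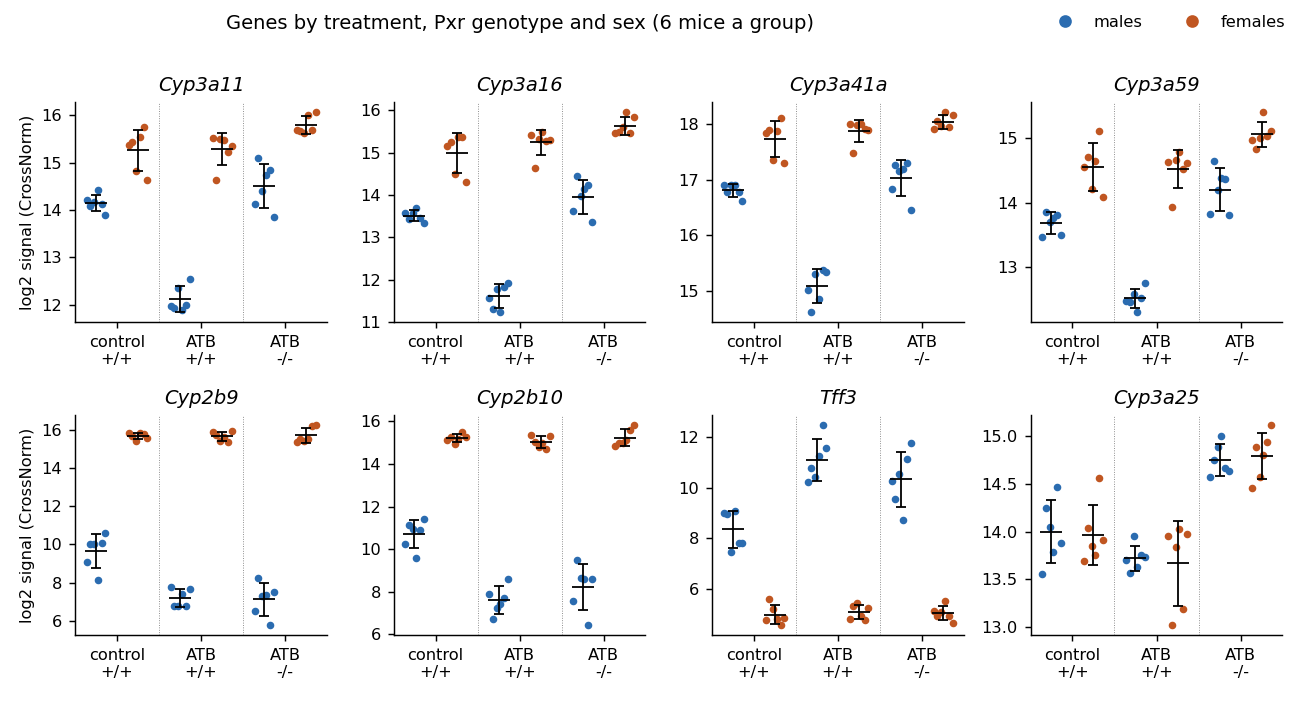
Log2 signal after CrossNorm (vertical axes) of 8 genes in each mouse, males in blue and females in orange, in control Pxr+/+, antibiotic-treated Pxr+/+ and antibiotic-treated Pxr-/- livers, with mean and SD as black bars (n = 6 a group). The 4 called Cyp3a genes are lowest in Pxr+/+ males on antibiotics, Cyp2b9 and Cyp2b10 are low in males of both genotypes on antibiotics, and the sexes overlap for Cyp3a25 in each pair of groups.

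Neighbouring P450 genes did not all have this pattern. Cyp3a25 differed between the sexes by 0.06 ± 0.16 on antibiotics and by 0.03 in control mice, Cyp3a57 by 0.02 and 0.01, and Cyp3a13 by -0.35 and -0.69. Cyp3a44 and Cyp2b13 had a difference of sex differences of -0.92 and -0.87 that was not called (adjusted p = 0.34 and 0.33), and no male on antibiotics was well above background for either, so that a fall in males has no measured size there. The start regions of 2 of these pairs are nearly the same. They are shown because Cyp3a25 was not called for sex and Cyp3a59 was, and because Cyp2b9 was called for a change with antibiotics and Cyp2b13, whose male level could not be measured, was not, with the mismatches between the members of a pair in capitals. Cyp3a25 (chr5:146009568-146009867, minus strand) and Cyp3a59 (chr5:146079008-146079307, plus strand) are identical at 96.3% of 300 bases, with 11 mismatches.
Cyp3a25: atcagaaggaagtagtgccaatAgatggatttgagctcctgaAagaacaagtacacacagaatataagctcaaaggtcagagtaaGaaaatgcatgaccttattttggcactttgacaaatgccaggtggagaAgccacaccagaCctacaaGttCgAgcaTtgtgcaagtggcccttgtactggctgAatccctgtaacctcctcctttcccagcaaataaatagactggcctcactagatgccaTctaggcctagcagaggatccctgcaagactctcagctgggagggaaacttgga
Cyp3a59: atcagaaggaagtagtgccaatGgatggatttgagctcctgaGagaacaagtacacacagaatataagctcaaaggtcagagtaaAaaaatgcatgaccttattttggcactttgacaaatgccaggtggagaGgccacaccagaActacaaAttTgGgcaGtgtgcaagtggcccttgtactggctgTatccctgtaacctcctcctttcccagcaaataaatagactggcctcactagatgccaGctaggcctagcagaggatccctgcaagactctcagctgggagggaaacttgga
Cyp2b9 (chr7:26173159-26173458, plus strand) and Cyp2b13 (chr7:26061245-26061544, plus strand) are identical at 99.3%, with 2 mismatches.
Cyp2b9: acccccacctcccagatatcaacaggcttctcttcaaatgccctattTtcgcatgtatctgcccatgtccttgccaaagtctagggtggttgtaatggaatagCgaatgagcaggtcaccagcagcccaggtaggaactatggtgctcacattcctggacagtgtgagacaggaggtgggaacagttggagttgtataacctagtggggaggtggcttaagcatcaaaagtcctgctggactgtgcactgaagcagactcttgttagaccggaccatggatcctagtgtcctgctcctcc
Cyp2b13: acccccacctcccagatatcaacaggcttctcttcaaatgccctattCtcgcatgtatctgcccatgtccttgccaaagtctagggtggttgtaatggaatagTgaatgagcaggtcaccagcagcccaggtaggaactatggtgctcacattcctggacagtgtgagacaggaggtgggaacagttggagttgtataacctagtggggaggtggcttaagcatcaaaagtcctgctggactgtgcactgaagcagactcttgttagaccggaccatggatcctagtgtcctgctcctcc
Aligned without gaps, Cyp3a11 shares at most 42.1% of the aligned bases with any other Cyp3a gene in this window, while Cyp3a16 and Cyp3a41a share 94.6%. Without gaps an inserted base or a shifted start lowers the share, so a low value does not show that 2 promoters are unrelated. The probes of Cyp3a genes share runs of at most 29 bases and those of Cyp2b genes of at most 10, and whether they read sister transcripts was not tested.

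Tff3 led the other direction. Its mean was 11.12 in males on antibiotics and 8.35 in control males, while females had means of 5.09 and 4.97. The difference of sex differences was 2.65 ± 0.53 (adjusted p = 0.0314) after CrossNorm and was not called after quantile normalization (2.47, adjusted p = 0.101). Leaving out any 1 of 6 mice (males 4, 5 and 6 and females 2, 4 and 5) ended the call, with an adjusted p of up to 0.105. The sex difference also changed for 1 of 4 Paip2b probes (0.95 ± 0.18, adjusted p = 0.0257), 1 of 3 Pknox1 probes (0.74 ± 0.15, adjusted p = 0.0314) and 1 of 2 Shq1 probes (0.96 ± 0.18, adjusted p = 0.0192). These probes went from a female excess in control mice of -0.55, -0.39 and -0.54 after CrossNorm to values of 0.40, 0.35 and 0.42 on antibiotics. After quantile normalization the control values were -0.31 (adjusted p = 0.0521), -0.13 (adjusted p = 0.373) and -0.34 (adjusted p = 0.0376), and the change was not called for Paip2b (adjusted p = 0.101) or Pknox1 (adjusted p = 0.192). With 1 of the 12 mice left out in turn, Paip2b kept its call in 7 of 12 fits (lost without males 3 or 5 or females 2, 4 or 5), Pknox1 in 4 (kept without males 4 or 6 or females 1 or 6) and Shq1 in 10 (lost without females 4 or 5). The quantile-normalized values called Shq1 and, in the other direction, Zdhhc2 (-0.75, adjusted p = 0.0463).

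Antibiotic-treated Pxr-/- mice, which share no array with the Pxr+/+ mice, gave another comparison. The 12 arrays of antibiotic-treated Pxr+/+ mice enter both this test and the one against control mice. A gene called in both is therefore not an independent second result. The test of the difference of sex differences (Pxr+/+ less Pxr-/-) called 12 genes (0.0572%) after CrossNorm and 10 (0.0477%) after quantile normalization, against 2823 and 1446 with an unadjusted p under 0.05. Cyp3a11, Cyp3a16, Cyp3a41a and Cyp3a59 were among them, with values of -1.96 ± 0.24 for Cyp3a16, -1.89 ± 0.25 for Cyp3a11, -1.78 ± 0.19 for Cyp3a41a and -1.16 ± 0.20 for Cyp3a59. Cyp3a11 had a mean of 14.51 in Pxr-/- males on antibiotics and of 12.11 in Pxr+/+ males, and its sex difference in Pxr-/- mice was -1.28. Cyp2b10 and Cyp2b9 were not called in this test, and their means in Pxr-/- males on antibiotics were 8.22 and 7.12. Slco1a4, an organic anion transporter known as a PXR target, had a female excess of -1.27 ± 0.20 in Pxr+/+ mice and of -3.43 in Pxr-/- mice (difference 2.15 ± 0.29, adjusted p = 2.38e-05). Moxd1 ranged from 4.60 to 8.43 in Pxr+/+ males and averaged 9.71 in Pxr-/- males on antibiotics, with females not well above background in Pxr+/+ mice (difference of sex differences -3.67 ± 0.66, adjusted p = 0.00675). Sult2a5 (2.49) and Meig1 (-1.58) were called after both normalizations. In Pxr+/+ mice on antibiotics no male array was well above background for Sult2a5. For Meig1 no female array was and 4 of 6 male arrays were, so that both sizes rest on values near background. Cyp39a1 (1.19), Rdh16f2 (0.73), Dtnb (0.55) and Ankle2 (0.54) were called after CrossNorm but not after quantile normalization, where their adjusted p-values were 0.347, 0.148, 0.113 and 0.409, and Dtnb and Ankle2 were read from a probe other than their brightest. Adamtsl1 (-1.10) and a chromosome 2 transcript without a symbol (-0.50) were called after quantile normalization alone, both with an adjusted p of 0.0469. Of all the genes called in Pxr+/+ mice on antibiotics after quantile normalization, 927 of those higher in males (55.2%) and 1006 of those higher in females (53.3%) were called the same way in the Pxr-/- mice, where they made up 55.3% and 67.0% of the lists.

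Of 22 tested genes of sterol synthesis, 9 were called higher in males and 0 higher in females, beside 4.16% and 10.1% of all genes. Their median difference was 0.55 against -0.04 over all genes. Fdps, which makes farnesyl diphosphate, ranged from 15.68 to 16.09 in males (median 15.81) and from 14.85 to 15.24 in females (median 14.98). The sexes were separate, with a difference of 0.82 ± 0.21 (adjusted p = 0.00672). Msmo1 (0.94 ± 0.26), Lss (0.91 ± 0.27), Idi1 (0.85 ± 0.25) and Dhcr7 (0.59 ± 0.20) were called as well without overlap. The call of Dhcr7 was lost without any 1 of 9 mice (adjusted p of up to 0.0891), that of Lss without male 4 (0.0679) or female 6 (0.0596) and that of Idi1 without female 4 (0.0527) or 6 (0.0646). Scaling on spike-in transcripts also ended the calls of Dhcr7 (adjusted p = 0.134) and Lss (0.0527). Dhcr7 was not called without wash batch correction either (0.0636). None of Fdps, Msmo1, Lss, Idi1 and Dhcr7 was called within wash batch 1 alone or within wash batch 2 alone. The regulator Srebf2 was not called (-0.08 ± 0.10). In control mice the median of the list was -0.43 after CrossNorm and -0.21 after quantile normalization, beside -0.20 and 0.01 over all genes. There 0 members were called higher in males, and 7 after CrossNorm and 2 after quantile normalization higher in females, where CrossNorm called 34.1% of all genes. The difference of sex differences was above 0 for 22 of 22 members, with a median of 0.97 after CrossNorm and 0.78 after quantile normalization, where the medians of all genes were 0.16 and 0.00. Over all 20971 genes it was above 0 for 17809 after CrossNorm and for 10339 after quantile normalization. It was called for no member, the smallest adjusted p being 0.063 for Tm7sf2, and 20 and 17 members were above 0 with an unadjusted p under 0.05, against 2638 and 526 of all genes.

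Genes of fatty acid oxidation controlled by PPARA, the receptor that fasting activates, had 0 members higher in males and 15 of 39 higher in females. Over all genes the shares were 4.16% and 10.1%. The median of the list was -0.26. Acot4, an acyl-CoA thioesterase, ranged from 10.27 to 10.89 in females (median 10.58) and from 8.17 to 8.66 in males (median 8.56). It differed by -2.09 ± 0.19 (adjusted p = 1.03e-11). Ehhadh, of peroxisomal oxidation, differed by -0.96 ± 0.16 and Pdk4, which slows glucose oxidation, by -1.83 ± 0.39, the latter with overlap. Fgf21, the fasting hormone of liver, differed by -1.22 ± 0.38 with overlap, and its call was lost without male 4, 5 or 6 or female 3, 5 or 6 (adjusted p of up to 0.095). Cpt1a, the carnitine palmitoyltransferase of mitochondrial entry, was not called (-0.28). Cyp4a14, Cyp4a10, Acot3 and Vnn1 are in this list and also in that of female-biased growth hormone targets. The median difference of sex differences was -0.21 after CrossNorm and -0.38 after quantile normalization, against 0.16 and 0.00 over all genes. No member was called, and 10 and 21 were below 0 with an unadjusted p under 0.05, against 78 and 529 of all 20971 genes. Cyp4a14 had the largest value, -3.23 with an adjusted p of 0.11.

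Of 25 genes of fatty acid synthesis and elongation, Elovl3 alone was higher in males after CrossNorm and 2 were higher in females. Fasn (0.49 ± 0.30), Elovl2 (-0.11), Elovl5 (-0.21) and Elovl6 (0.14) were not called. Of 17 clock genes 1 was called after CrossNorm, Per2 (2.14-fold higher in males, adjusted p = 0.0123), with overlap between the sexes. Dbp ranged from 9.96 to 14.40 in males and from 8.49 to 13.97 in females and was not called. Beside 4.16% and 10.1% of all genes, these counts do not set fatty acid genes apart, nor clock genes on the male side. No heat shock gene of 12 was called.

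Of 25 tested genes of the interferon response, 20 were called higher in females and 0 higher in males, and 11 did not overlap. Over all genes these shares were 10.1%, 4.16% and 6.49%. Gbp3, a guanylate-binding protein gene, ranged from 9.04 to 10.19 in females (median 9.52) and from 7.43 to 8.40 in males (median 8.15), with a difference of -1.49 ± 0.18 (adjusted p = 4.63e-08). Igtp differed by -1.25 ± 0.19 and Ifit1 by -0.96. The median of the list was -0.67, against -1.19 in control mice. The difference of sex differences was above 0 for 25 of 25 members, with a median of 0.67 after CrossNorm and 0.49 after quantile normalization, and 19 and 12 members were above 0 with an unadjusted p under 0.05, but none was called. The same counts over all genes were 17809 above 0 after CrossNorm, with a median of 0.16, and 10339 after quantile normalization, and 2638 and 526 were above 0 with an unadjusted p under 0.05. Of 23 acute phase genes 7 were higher in females and 0 higher in males, beside 10.1% and 4.16% of all genes. Among the 7 were Orm3 (-2.07 ± 0.50) and Apcs (-0.95 ± 0.24).

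**Figure D5:**
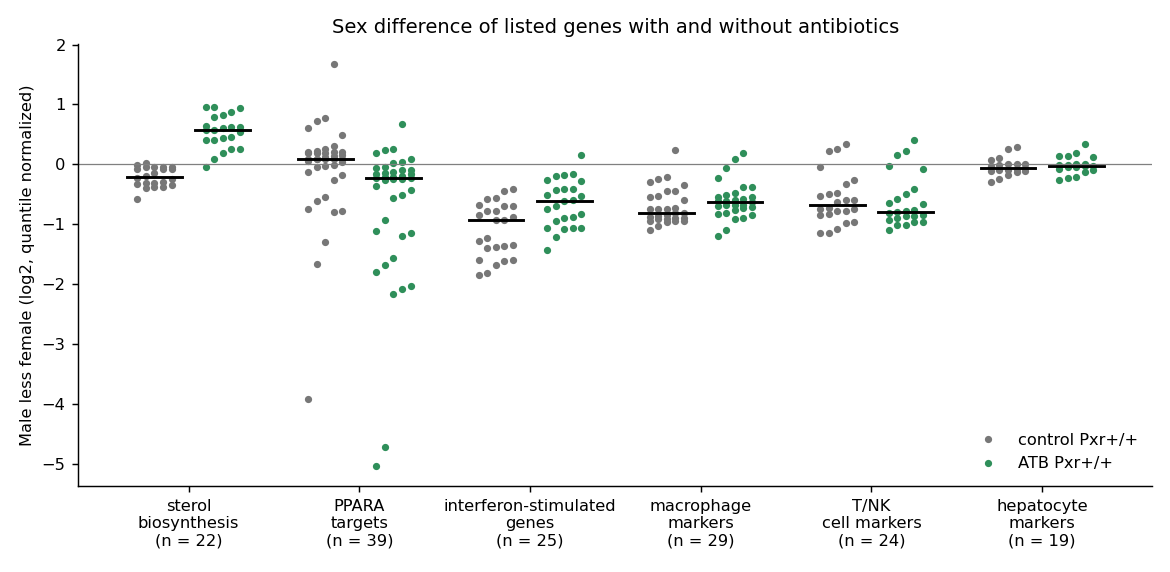
Male less female difference (log2, quantile normalized, vertical axis) of each tested gene in 6 lists, in control (grey) and antibiotic-treated (green) Pxr+/+ livers, with the median of each list as a black line. The genes of sterol synthesis lie mostly above 0 on antibiotics and mostly below 0 in control mice, and the medians of the interferon, macrophage and T/NK lists are below 0 in both.

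Markers of some other cells moved with sex as well, and in whole liver a smaller number of cells and less RNA per cell cannot be told apart. Of 29 macrophage markers 17 were called higher in females and 1 in males, beside 10.1% and 4.16% of all genes. The male call came from a probe other than the brightest of its gene, and by brightest probe 0 markers were higher in males with an unadjusted p under 0.05. The median of the 29 was -0.71, but in 0 of them were the sexes free of overlap, beside 6.49% of all genes. Clec4f, which marks Kupffer cells, the resident macrophages of liver, differed by -0.64 ± 0.17, and by -0.52 without female 6 (adjusted p = 0.0505). The summed linear level of the macrophage list ran from 26339 to 50451 in males and from 34181 to 90790 in females. Of 24 T and NK cell markers 19 were higher in females and 0 in males, with a median of -0.86 and 8 without overlap, such as Thy1 (-1.17 ± 0.18). Their summed level ran from 17555 to 22983 in males and from 16147 to 25453 in females. No B cell marker of 10 was called, and of 9 neutrophil markers 1 was higher in females. Sinusoidal endothelial markers were higher in females in 3 of 20, stellate cell and fibroblast markers in 5 of 19 and cholangiocyte markers in 1 of 13, beside 10.1% of all genes. All 19 hepatocyte markers had signal in both sexes, with a median of -0.03, and Alb, the albumin gene, differed by -0.03. The part of these cells in the interferon and acute phase differences was not tested.

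Sex-biased genes were spread over the autosomes. The share of tested genes over 2-fold higher in males ran from 0.297% on chromosome 2 to 1.99% on chromosome 4, which holds the Mup and Cyp4a clusters. The share over 2-fold higher in females ran from 0.51% on chromosome 14 to 2.58% on chromosome 19, which holds Cyp2c and Slc22a genes.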

How the data were processed

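Liver RNA of single mice was hybridised to 1-colour arrays, and the authors deposited the scanner output of each array with its median signal intensity on a linear scale, together with a table of processed log2 values. Agilent Feature Extraction 10.10.1.1 is named in the submitters' processing notes. The median signal intensities were taken as log2 values, probes well above background in at least 5 arrays of a group were kept (32979 of 56605), 3501 outlier spots were left out and no spot was saturated. The wash batch was removed, CrossNorm was rebuilt from its description or replaced by quantile normalization of all 47 arrays, and limma 3.58.1 in R 4.3.3 was fitted to all mouse groups with Benjamini-Hochberg adjustment over all tested probes. The deposited log2 table served as an alternative. A gene counts as called through at least 1 probe, and 5 genes were called in both directions by different probes. Lower limits ("at least") set the lowest signal well above background on each array against the bright group. Named genes included the 10 largest a side among those without overlap and called after both normalizations. The others were members of the gene lists, genes called in a difference of sex differences, liver genes named in the study and sex chromosome genes. Genes and lists were chosen with earlier results of these data known. The fit was tested on simulated data. Standard errors are limma's. Some genes that meet the rule are not reported here. Replicate numbers do not pair the sexes. Each slide holds 1 male and 1 female of these groups, and the slide was used as a block in an alternative.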

Additional observations from a re-analysis of the deposited data

Results flagged for a closer look

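With 6 mice a group, a mouse was marked where its gap to the nearest other mouse took an unusually large share of the range of its group, which chance gives in about 1 in 20 groups. Of 246 groups of values, 15 held such a mouse. Female 2 was the lowest female for Cyp3a11 (log2 signal 14.64), Cyp3a16 (14.66), Cyp3a41a (17.48), Cyp3a59 (13.93) and Sult2a4 (11.09), and the 4 Cyp3a genes kept their calls without this mouse. Female 1 was lowest for Cyp4a14 (9.03) and highest for Esr1 (11.34), female 3 was highest for Lss (12.06) and Msmo1 (14.73), and female 5 was lowest for Cyp7a1 (7.74). Male 1 was highest for Sult2a1 (5.65), male 4 for Esr1 (9.48), and male 3 was lowest for Gbp3 (7.43) and Stat5a (10.90). Male 6 was lowest for Sult2a5 (3.95), for which no male array was well above background.

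The sex difference differed between antibiotic-treated and control Pxr+/+ mice, by the test of the difference itself, for Tff3 (2.65), Shq1 (0.96), Paip2b (0.95), Pknox1 (0.74), Cyp3a59 (-1.14), Cyp3a41a (-1.88), Cyp3a11 (-2.06), Cyp3a16 (-2.15), Cyp2b9 (-2.43) and Cyp2b10 (-2.93). Between Pxr+/+ and Pxr-/- mice on antibiotics it differed for Sult2a5 (2.49), Slco1a4 (2.15), Cyp39a1 (1.19), Rdh16f2 (0.73), Dtnb (0.55), Ankle2 (0.54), Cyp3a59 (-1.16), Meig1 (-1.58), Cyp3a41a (-1.78), Cyp3a11 (-1.89), Cyp3a16 (-1.96) and Moxd1 (-3.67).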

How the results depend on the processing

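All 91 named genes with a call kept their direction in every setting run, and 50 also kept their call. Counts moved more. Genes higher in males numbered 1678 with quantile normalization, 457 with arrays scaled on spike-in transcripts, 1998 with the processed signal, 403 within wash batch 1, 156 within wash batch 2 and 177 above 2-fold. Genes higher in females numbered 3521 with spike-in scaling, 823 and 175 within the wash batches and 276 above 2-fold. With no normalization the calls were 817 and 1963, with normexp 1263 and 1573, with the processed signal 1998 and 2072 and with the authors' processed values 1275 and 2237. Leaving out 1 mouse gave 708 to 913 genes higher in males and 1467 (without female 6) to 2565 (without female 5) higher in females.

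The sex difference changed with antibiotics for 5 genes within wash batch 1 and 0 within wash batch 2 by limma, where 1687 had an unadjusted p under 0.05. It changed for 6 genes without female 4 or female 5 and for 18 without female 1. It changed with genotype for 7 genes with spike-in scaling, 5 with the processed signal, 7 with only the groups compared, 5 within wash batch 1 and 1 within wash batch 2, and for 8 (without female 2) to 13 with 1 mouse left out. Sult2a5, Cyp39a1, Rdh16f2 and Dtnb lost this call without at least 1 mouse, with adjusted p of up to 0.0722, 0.132, 0.139 and 0.104. The causes were not tested. Alternatives chosen after seeing the data were the quantile-normalized fits without 1 mouse, which gave 1400 to 1711 and 1467 to 1965 genes, and the mean log2 intensity of arrays, whose exact two-sided permutation p was 0.403.

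Replicate numbers of the labels did not pair males with females (correlations of -0.19 to 0.15). With the slide as a block the calls were 914 and 2222, and 10 and 12 genes changed with antibiotics and with genotype. With the replicate block the calls were 855 and 2075, and the sex difference changed with antibiotics for 7 genes and with genotype for 12. Probes not well above background limit fold changes at the low end, and 6 mice in 2 cages a group limit precision.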
